A study of Neurospora crassa with 112 samples.

Results

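Wild strains of the filamentous fungus *Neurospora crassa* fell into 62 libraries with reads of *rcd-1* (NCU05712) and 43 libraries with almost none, and all other genes were compared between them. The groups were selected on the measured level of *rcd-1*: above 10 RPKM (a read count divided by gene length and by library total) was counted as with reads, and below 1 RPKM as without reads. The remaining 3 of all libraries lay between the limits and were left out of the comparisons.

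The product of *rcd-1*, regulator of cell death-1, is a fungal relative of the gasdermins, proteins that form pores in membranes and cause lytic cell death in animals. In *N. crassa* it controls the death of germlings after fusion between strains that carry incompatible variants of the gene, a form of allorecognition that keeps unlike individuals from sharing cytoplasm. The gene is highly polymorphic in wild populations, with antagonistic classes of alleles. The libraries compared here are of mycelia, a later stage than the germlings in which this death was described.

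The study sequenced polyadenylated RNA of 112 strains to relate natural variation to germling communication. Cultures were 16 h old when harvested from cellophane sheets on Bird medium, a minimal medium, and each strain gave 1 library. By name, the libraries with *rcd-1* reads were 40 JW and 22 D or FGSC strains, and those without were 31 JW and 12 D or FGSC strains. The strains are haploid and are titled wild Louisiana isolates in the sample labels, which name no introduced allele. Among them is FGSC 2489, a laboratory strain originally from Louisiana, which had reads. FGSC 2489 is also the strain to whose genome the study mapped its reads for variant calling, so a missing *rcd-1* value means only that reads were not assigned to the gene model used. Whether such a strain lacks the gene, carries it with another sequence or does not transcribe it cannot be told apart in these values. Each strain was cultured and sequenced once, so the spread given throughout cannot be split into that of strains, of cultures and of libraries. The study left JW168 out of its strain tree, because its inheritance pattern pointed to possible misclassification. JW168 was kept here, among the libraries with reads, at 27.9 RPKM of *rcd-1*.

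Library totals ranged from 4174767 to 30748165 reads. In 4 pairs of columns the totals were identical and the values were identical for 88.3% to 90.7% of genes, and each pair was averaged and counted as 1 library. The mean log2 total was 23.88 in libraries with *rcd-1* reads and 24.06 in libraries without (adjusted p = 0.284 over the 2 library measures compared, two-sided permutation test with 100000 resamples). A mean of 874 genes was listed at 0 in libraries with reads and 844 in libraries without (adjusted p = 0.284, same test). Neither difference passed the test.

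The level of *rcd-1* was close to all or nothing. In the 62 libraries with reads it ran from 10.3 RPKM through a median of 47.7 RPKM to 148 RPKM, which corresponded to 131 to 3075 reads. In the 43 libraries without reads the highest level was 0.628 RPKM, 30 libraries held 0 reads and the other 13 held 1 to 9 reads. A count of 3 reads, taken as the limit that a count of 0 allows, corresponds to between 0.135 and 0.86 RPKM in those 30 libraries, for counting error only. These values chose the groups and were not tested.

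Few libraries sat near the limits. Just inside the upper limit were FGSC 4457 with 10.3 RPKM (217 reads) and then JW9 with 21.8 RPKM. Just inside the lower limit were D114 with 0.628 RPKM (3 reads), JW20 with 0.58 RPKM (4 reads) and JW200 with 0.463 RPKM (9 reads). The libraries left out were FGSC 4451 with 3.86 RPKM, FGSC 4496 with 2.15 RPKM and JW160 with 1.46 RPKM, from 25, 14 and 16 reads.

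**Figure D1:**
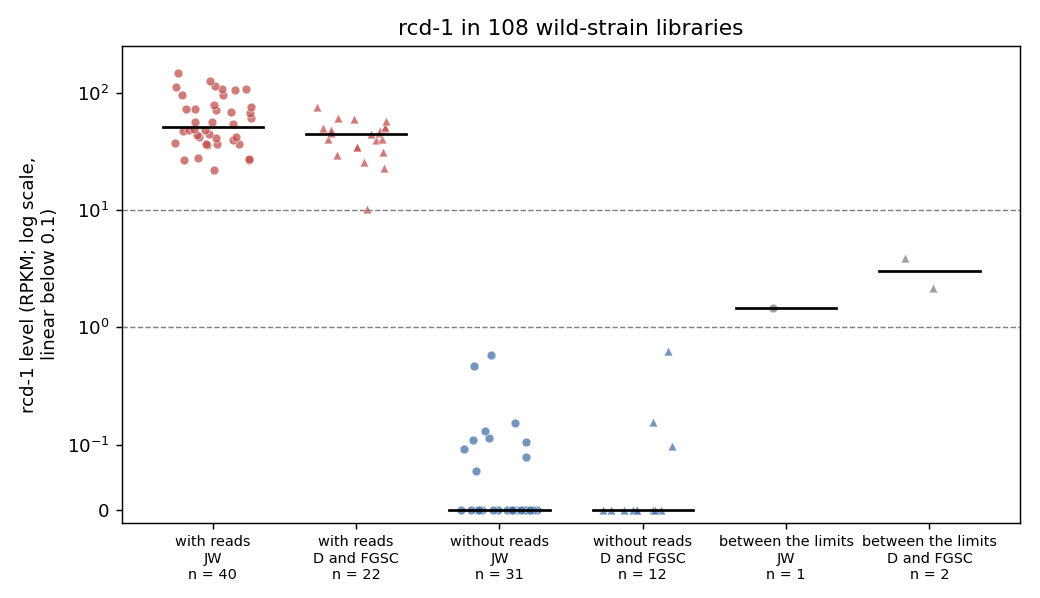
Level of *rcd-1* in RPKM (log axis, linear below 0.1) in each library, split by group and strain series, with a line at each median and dashed lines at the limits of 10 and 1 RPKM. Libraries with reads sit between 10.3 and 148 RPKM, those without at or below 0.628 RPKM, and 3 lie between the limits.

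Among the libraries with reads, the level was more spread in JW strains than in the others. It averaged 62.5 ± 31.5 RPKM in JW libraries (SD, n = 40) and 42.9 ± 14.5 RPKM in D and FGSC libraries (SD, n = 22). The 9 libraries above 90 RPKM, at 95.3 to 148 RPKM, were all JW strains, and the other 53 reached at most 77.7 RPKM. The highest were JW218, JW242 and JW238, with 148, 126 and 115 RPKM, and all of them came from Welsh. FGSC 2489 had 76 RPKM. The Spearman correlation of the level with the library total was 0.03 over the 40 JW libraries and -0.19 over the 22 D and FGSC libraries, as a description.

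Both states were found side by side at most places. Of 71 JW libraries in the comparison 40 had reads, against 22 of 34 D and FGSC libraries (two-sided Fisher's exact test, p = 0.525). At Franklin, the site with the most strains in the study's strain list, 18 libraries had reads, 14 had none and 2 lay between. Houma had 7 with and 5 without, Welsh 7 and 4, Elizabeth 6 and 3, Roanoke 5 and 3, Coon 2 and 4, and Sugartown 2 and 2. Iowa, in Louisiana, had 3 with, 4 without and 1 between. JW5 and JW7, listed under Panama in the strain list but titled Louisiana isolates in the sample labels, had reads, at 48 and 48.4 RPKM.

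The first question was whether any other gene differed in level between the groups. Of the 7984 genes that averaged 1 RPKM or more over all libraries, 1 gene passed an adjusted p of 0.05 (limma on log2(RPKM + 1), Benjamini-Hochberg adjustment), 0.0125% of those tested, and it was lower in libraries with reads. At an unadjusted p of 0.05, 386 genes passed, 4.83% of those tested, 133 of them higher and 253 lower in libraries with reads. The ranges of the groups overlapped for every gene tested, so the non-overlapping share was 0% and no second gene showed the on/off split of *rcd-1*. The median difference over all genes was -0.01 and the median size of a difference was 0.05, both in log2(RPKM + 1). In simulated libraries of the same sizes, 200 genes were changed at once for each size of change. The model found 50.5% of the genes changed by 0.25, 87% of those changed by 0.5 and 98% of those changed by 1 on that scale. The adjusted threshold is looser when many genes change, and recovery of a gene changed alone or of an on/off gene was not tested. The 2 genes with a measured difference above 1, NCU06420 (1.17) and NCU01381 (1.14), did not pass (adjusted p = 0.947 and 0.97, limma).

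The gene that passed was NCU03966, on chromosome VI, for which the tables used here give no name. It had 4.71, 7.01 and 13 RPKM as lowest, median and highest value in libraries with reads, against 4.28, 10.4 and 18.8 RPKM in libraries without. The ranges overlap over most of their length, but 40 of the 43 libraries without reads lay above the median of the libraries with reads. Only 8 of the 62 libraries with reads lay above the median of those without. The means were 7.69 ± 2.23 RPKM with reads (SD, n = 62) and 10.4 ± 2.79 RPKM without (SD, n = 43), a ratio of 0.741.

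On the log2(RPKM + 1) scale NCU03966 fell by 0.39 in libraries with *rcd-1* reads (SE 0.07, 95% confidence interval -0.53 to -0.25, adjusted p = 0.00242 with limma). It was a gene of low but well counted level, with medians of 229.5 reads per library with *rcd-1* reads and 345 reads without. Its median was 7.44 RPKM in JW libraries with reads against 10.4 RPKM in JW libraries without, and 6.22 RPKM in D and FGSC libraries with reads against 10.3 RPKM without. The difference was -0.35 within JW libraries (unadjusted p = 0.000109, limma) and -0.47 within D and FGSC libraries (unadjusted p = 0.0013, limma). Within either series alone no gene passed the adjusted threshold, and there its adjusted p was 0.874 in JW and 0.677 in D and FGSC libraries. The difference between the series was 0.12 (JW minus D and FGSC; unadjusted p = 0.427, limma interaction term), and this did not pass the test.

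Both groups occurred at most collection sites, which allowed the level of NCU03966 to be read place by place. In all 8 sites with at least 2 libraries in each group its median was lower in the libraries with *rcd-1* reads, over 50 libraries with reads and 39 without. At Franklin the median was 6.22 RPKM in 18 libraries with reads against 10.3 RPKM in 14 without. At Welsh it was 7 RPKM in 7 libraries with reads against 10.5 RPKM in 4 without, and at Coon the 2 libraries with reads, at up to 5.53 RPKM, lay below the 4 without, at 9.44 RPKM or more. The smallest gap was at Houma, with 7.29 RPKM in 7 libraries with reads against 7.92 RPKM in 5 without. These site values describe the same libraries as the test above and add no independent samples.

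**Figure D2:**
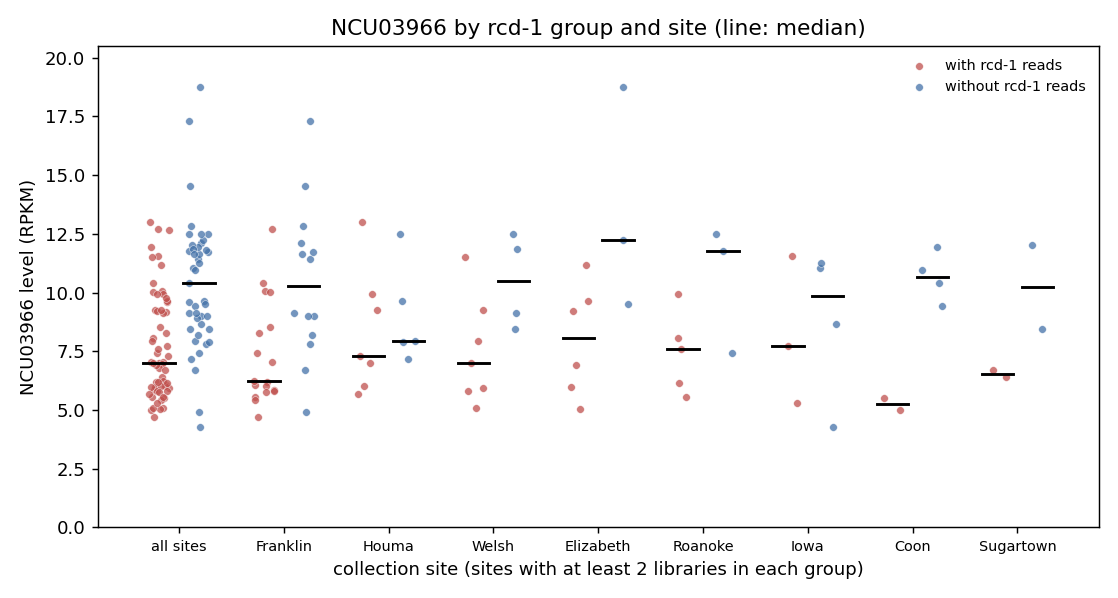
Level of NCU03966 in RPKM in each library, with *rcd-1* reads at left and without at right of each pair, for all libraries and for the 8 sites with at least 2 libraries in each group; lines are medians. The groups overlap, and the median is lower with reads at each of the 8 sites (7.01 against 10.4 RPKM over all libraries).

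Over all libraries its Spearman correlation with the *rcd-1* level was -0.40, the most negative of all genes tested. Within the 62 libraries with reads the same correlation was 0.005, so that the relation lay between the groups and not within the group with reads. The 3 libraries between the limits had 6.6, 11.9 and 12.1 RPKM. These correlations are descriptions, since the points share libraries and the gene was picked as the extreme of 7984.

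In the reference gene order NCU03966 lies close to *vvd* (NCU03967), which encodes the blue-light photoreceptor VIVID that damps the light response. *vvd* had 387, 1069 and 3749 RPKM as lowest, median and highest value with *rcd-1* reads, against 217, 1297 and 3762 RPKM without, a difference of -0.25 that did not pass the test (adjusted p = 0.97, limma). On the other side NCU03965 had medians of 13 RPKM with reads and 13.6 RPKM without. The Spearman correlation of NCU03966 over all libraries was 0.14 with *vvd* and 0.16 with NCU03965. Neither gene beside NCU03966 passed the test.

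The genes next in order of p were likewise lower in libraries with *rcd-1* reads, and none passed. NCU03332, on chromosome II, had a median of 32.1 RPKM with reads against 38.1 RPKM without, a difference of -0.25 (95% confidence interval -0.36 to -0.13, adjusted p = 0.153, limma). It was lower in the libraries with reads at 5 of the same 8 sites, and was chosen for its p after its values were seen. NCU09635 had medians of 1.85 RPKM with reads and 2.6 RPKM without (difference -0.44, adjusted p = 0.234, limma). NCU07506 had 52.9 RPKM with reads and 69.9 RPKM without (difference -0.33, adjusted p = 0.332, limma). NCU03332 passed in 1 alternative, in which each of the 112 columns entered as its own library.

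**Figure D3:**
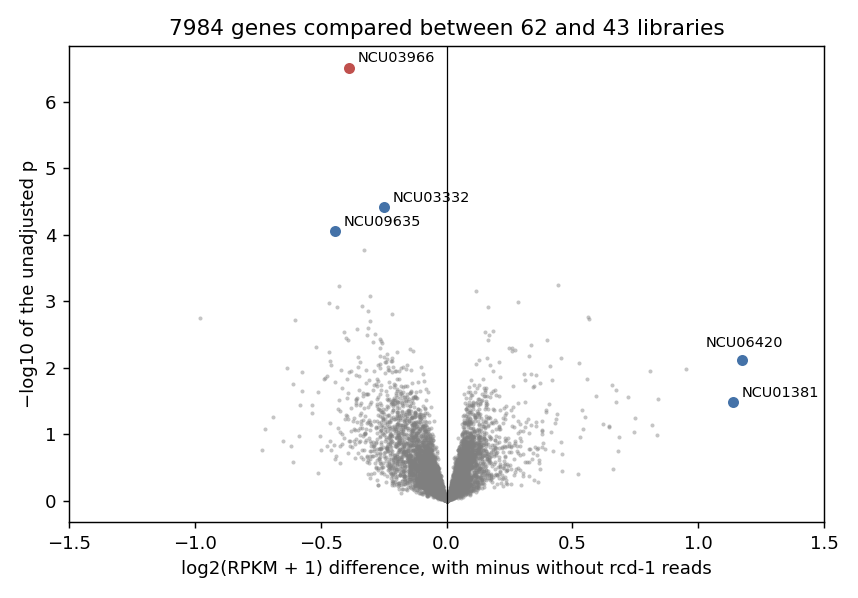
Difference in log2(RPKM + 1) between the 62 libraries with and the 43 without *rcd-1* reads (x axis) and the negative log10 of its unadjusted p (y axis) for the 7984 genes tested; the red point passed the adjusted threshold, blue points are named genes that did not. NCU03966 stands apart in p, at a difference of -0.39, while the genes with differences above 1, NCU06420 and NCU01381, have larger p.

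The second question was whether genes linked to *rcd-1* shared its split. The gene lies on chromosome III, with 147 annotated genes before it of 1325 on the chromosome in the RefSeq annotation of assembly NC12, used here for gene order only. Of the 40 genes within 20 places on either side, 36 have a row in the table used, 25 were expressed well enough to be tested and 0 passed, against 0.0125% of all genes (limma). At an unadjusted p of 0.05, 1 of the 25 passed, against 4.83% of all genes. The differences ran from -0.17 to 0.20, with a median size of 0.05, the same as over all genes.

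The genes that touch *rcd-1*, and the next gene on its left, were nearly silent in both groups. On its left, NCU05711 had at most 0.485 RPKM in libraries with reads and 0.0522 RPKM in libraries without, and NCU05710 had at most 0.361 and 0.402 RPKM. On its right, NCU05713 had medians of 0 RPKM with reads and 0.052 RPKM without, with single libraries up to 5.55 and 5.32 RPKM. None of these genes reached the mean of 1 RPKM for testing.

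From the second to the fifth gene on the right, expression was high in both groups and no gene passed. NCU05714 had 99.9, 140 and 249 RPKM as lowest, median and highest value with reads, against 74.4, 145 and 253 RPKM without (difference 0.05, 95% confidence interval -0.07 to 0.18). NCU05715 had medians of 71.5 RPKM with reads and 71.3 RPKM without (difference 0.06, interval -0.03 to 0.14). NCU05716 had 92.2 RPKM with reads and 90.4 RPKM without (difference 0.02, interval -0.06 to 0.10). NCU05717 had 107 RPKM with reads and 105 RPKM without (difference -0.04, interval -0.17 to 0.10). For these 4 genes the intervals leave room for a difference of at most 0.18 on the log2 scale in either direction, far from the gap of *rcd-1* itself.

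On the left, the nearest expressed genes were weaker. NCU10387 had medians of 2.19 RPKM with reads and 2.65 RPKM without (difference -0.07, interval -0.43 to 0.29). NCU05708 had 15 RPKM with reads and 14.3 RPKM without (difference 0.11, interval from just below 0 to 0.22, adjusted p = 0.97, limma). Neither difference passed the test. The smallest unadjusted p in the window belonged to *acr-2* (NCU05733), an acriflavine resistance gene 18 places to the right. It had medians of 20.6 RPKM with reads and 22.9 RPKM without (difference -0.17, interval -0.30 to -0.04, adjusted p = 0.947, limma).

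**Figure D4:**
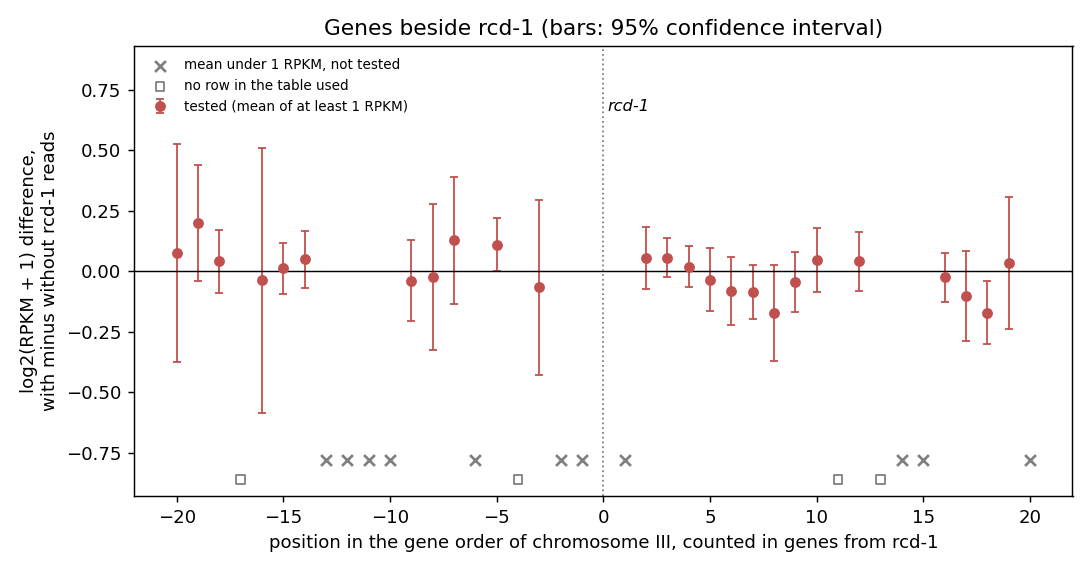
Difference in log2(RPKM + 1) with its 95% confidence interval (y axis) for the genes within 20 places of *rcd-1* in the gene order of chromosome III (x axis); crosses mark genes with a mean under 1 RPKM and squares genes without a row in the table used. The 25 tested genes lie between -0.17 and 0.20, and none passed the adjusted threshold.

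Farther along the chromosome, of the genes 21 to 50 places away 2 of 34 passed an unadjusted p of 0.05, of those 51 to 100 places away 6 of 60, and of the rest of chromosome III 30 of 813. These counts are 5.88%, 10% and 3.69% of the genes in each bin, against 4.83% of all genes. The median size of a difference was 0.055, 0.057 and 0.047 in these bins, against 0.051 over all genes. No gene of chromosome III passed the adjusted threshold.

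The third question was whether other genes that are on in some strains and off in others followed the *rcd-1* split. Apart from *rcd-1*, 150 genes were above 10 RPKM in at least 10 libraries and below 1 RPKM in at least 10 libraries. For each, the share of libraries in the same state as *rcd-1*, or in the opposite state, was counted over the libraries in which the gene was on or off. No gene passed 75%, and the median was 54.8%, where 50% is the lowest value possible. All 150 were also tested for level, and 0 passed, against 0.0125% of all genes, with 15 at an unadjusted p of 0.05 (limma), which is 10% of the 150 against 4.83% of all genes.

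The gene with the highest share was *acw-12* (NCU08171), which encodes an anchored cell wall protein, on chromosome VII. It was on in 41 and off in 4 libraries with *rcd-1* reads, and on in 16 and off in 8 libraries without, so that 71% of 69 libraries were in the same state. Its level had a median of 17.8 RPKM with reads and 6.61 RPKM without, and the difference of 0.84 did not pass the test (adjusted p = 0.97, limma). Among the libraries classed, *acw-12* was on more often than off in both groups, and in the group without reads 19 of the 43 libraries had it at 1 to 10 RPKM.

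The next 9 genes had their higher share in the opposite state, at 66.7% to 70.5% of 18 to 50 libraries. The share also depends on the group sizes, since a gene mostly off in both groups is opposite to *rcd-1* in the larger group. NCU05189 and NCU07022 were off more often than on in both groups, and NCU08495 was on more often than off in both. NCU05189 was on in 6 and off in 25 libraries with reads, and on in 6 and off in 7 without. NCU11711 was on in 2 and off in 12 with reads, and on in 10 and off in 8 without. NCU08495 was on in 8 and off in 7 with reads, and on in 17 and off in 3 without. NCU07022 was on in 4 and off in 27 with reads, and on in 7 and off in 12 without. The others were NCU12175, NCU03392, *mus-18* (NCU08850, an endonuclease for UV-damaged DNA), NCU05909 and NCU05625. In each of the 9 genes both states occurred in both groups.

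Genes with a cut between on and off as clean as that of *rcd-1* showed shares of 51.4% to 60.6%. Only 4 other on/off genes had 3 or fewer libraries at 1 to 10 RPKM, where *rcd-1* had 3. NCU07191 and its neighbour NCU07192, of the *doc* locus that sets communication groups, were on in 15 and off in 47 libraries with reads, and on in 4 and off in 39 without. NCU05921 was on in 24 and off in 38 with reads, and on in 11 and off in 32 without. *gh47-4* (NCU05836), a glycoside hydrolase family gene, was on in 46 and off in 15 with reads, and on in 26 and off in 17 without. Among the 19 genes classed in at least 84 libraries the highest share was 63.2%, for NCU05126.

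**Figure D5:**
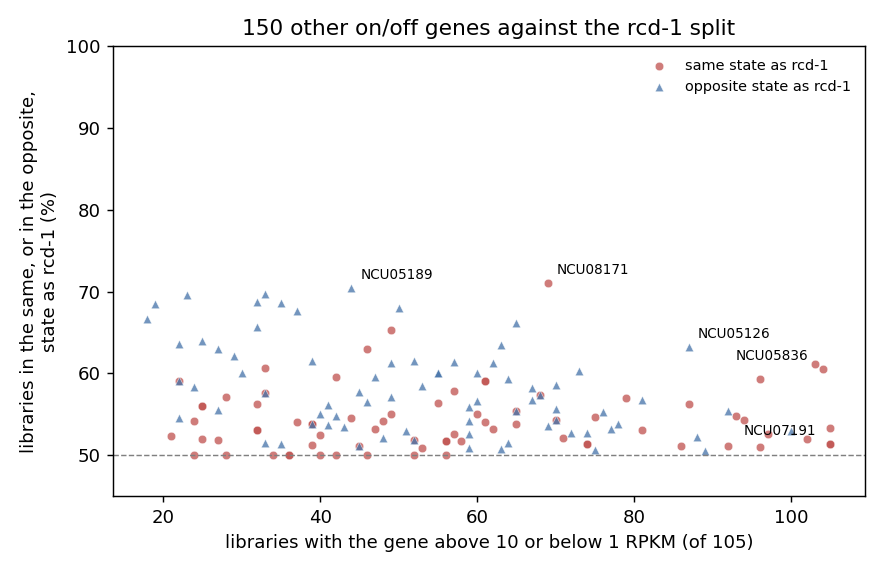
For each of the 150 other on/off genes, the number of libraries in which it was on or off (x axis) and the percentage of them in the same state (red circles) or the opposite state (blue triangles) as *rcd-1* (y axis; 50 is the lowest possible). The highest point is *acw-12* (NCU08171) at 71%, and the 19 genes classed in at least 84 libraries lie at or below 63.2%.

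Set against the other on/off genes, *rcd-1* was among the least paired. The measure was the phi coefficient, the correlation of on and off states, over pairs of genes that shared at least 50 classed libraries, which gave a best partner to 83 genes. The best partner of *rcd-1* was NCU12015, with a phi of -0.32 over 65 libraries, and by size this ranked 69 of 83. The median of the best partners was 0.51, and 22 genes had a partner above 0.8, in 10 of them within 3 places in the gene order. Neighbouring *doc* genes NCU07191 and NCU07192 had a phi of 1 over 107 libraries. These values describe shared libraries and were not tested.

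On chromosome III 10 on/off genes were found, the nearest 88 places from *rcd-1*. The one with the largest difference between the groups of all genes tested was NCU06420, 124 places away. It was on in 9 of 62 libraries with reads, at 195 to 365 RPKM, and in 0 of 43 libraries without, where the highest level was 3.7 RPKM. It was off in 47 libraries with reads, its share was 51% of 96 libraries, and the difference of 1.17 in log2(RPKM + 1) did not pass the test (adjusted p = 0.947, limma). FGSC 2489 was among these 9 strains, and their *rcd-1* levels of 26.5 to 76 RPKM lay inside the range of the other libraries. NCU06420 was chosen for its size after its values were seen.

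Of the 3 libraries between the limits, JW160 and FGSC 4496 also stood apart in other on/off genes. Over the 10 on/off genes with the fewest libraries at 1 to 10 RPKM, JW160 had 6 genes at such a level, FGSC 4496 had 5 and FGSC 4451 had 2. FGSC 4483, which had *rcd-1* at 29.6 RPKM, had 5, and each of the other 104 libraries had 3 or fewer, with none in 76. JW160 had NCU06420 at 22.4 RPKM, where the libraries that were on had 195 RPKM or more, and NCU07192 at 3.41 RPKM, where the median of libraries that were on was 35.5 RPKM. FGSC 4496 had *gh47-4* at 2.41 RPKM and FGSC 4483 had it at 2.25 RPKM, where the median of libraries that were on was 39.8 RPKM. The reason was not tested. Without FGSC 4483 the count of genes that passed was 1 again, and without FGSC 4457 it was 1, NCU03966 in both cases.

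Other genes of heterokaryon incompatibility and recognition were read against the split from a list of 16, of which 12 were tested and 0 passed, against 0.0125% of all genes (limma). At an unadjusted p of 0.05, 2 of the 12 passed, 16.7% against 4.83% of all genes. Both were neighbours in the *cwr* locus, NCU01381 and NCU01382, whose on and off states had a correlation (phi) of 0.92 over 67 libraries. The median difference of the 12 was 0.27, against -0.01 over all genes, with 9 higher and 3 lower in libraries with *rcd-1* reads. Several of the 12 are neighbours of one locus, so they are not separate observations. The 4 largest differences belonged to genes that are themselves on in a minority of strains, NCU07191 (0.62) and NCU07192 (0.75) of the *doc* locus and a pair from the *cwr* locus. The *doc* differences were 0.25 and 0.32 within JW libraries and 1.43 and 1.67 within D and FGSC libraries. The adjusted p of this difference between series was 0.741 for NCU07191 and 0.738 for NCU07192 (limma interaction term), so neither passed. Of the 12 genes, 4 were lower with reads within JW libraries and 0 within D and FGSC libraries. NCU01382 of the *cwr* locus, which sets a checkpoint of cell wall remodelling before fusion, was above 10 RPKM in 10 of 62 libraries with reads and 4 of 43 without (difference 0.67, adjusted p = 0.97, limma). NCU01381 of that locus was above 10 RPKM in 22 of 62 libraries with reads and 7 of 43 without, with medians of 1.51 and 0.967 RPKM (difference 1.14, adjusted p = 0.97, limma). NCU01380, the third gene of the locus, had medians of 28.9 RPKM with reads and 25.5 RPKM without (difference 0.44, adjusted p = 0.97, limma).

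No classical incompatibility gene passed the test. *het-c* (NCU03493), a glycine-rich protein that triggers incompatibility together with *pin-c*, had medians of 21.2 RPKM with reads and 18.1 RPKM without (difference 0.17, adjusted p = 0.97, limma). *vib-1* (NCU03725), a transcription factor required for that death, had 136 RPKM with reads and 128 RPKM without. *un-24* (NCU03539), the large subunit of ribonucleotide reductase, had 64 RPKM with reads and 66.3 RPKM without. *het-6* (NCU03533), which lies in the same incompatibility region, had 2.12 RPKM with reads and 5.37 RPKM without, and was above 10 RPKM in 14 of 62 and 11 of 43 libraries. *tol* (NCU04453), which mediates incompatibility between mating types, was between 1 and 10 RPKM in every library of both groups.

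Fusion genes act before the step that *rcd-1* controls. Of 20 listed, 18 were tested and 0 passed, against 0.0125% of all genes (limma). At an unadjusted p of 0.05 also 0 passed, against 4.83% of all genes, and the differences ran from -0.11 to 0.11. The MAP kinase gene *mak-2* (NCU02393) had medians of 430 RPKM with reads and 422 RPKM without, and *cse-1* (NCU04379), the calcium sensor gene, 299 RPKM with reads and 301 RPKM without. The members with the smallest p were NCU04732 with a difference of 0.10, *nrc-1* (NCU06182, the MAP kinase kinase kinase of the same pathway) with 0.11, *ham-9* (NCU07389) with -0.11 and *ham-10* (NCU02833) with 0.05.

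Lists for the state of the culture, in which these libraries vary widely, showed no call either, where 0.0125% of all genes passed. Of 8 conidiation genes 6 were tested and 0 passed, with a median difference of -0.15 and *acon-3* (NCU07617), a regulator of conidiophore development, at -0.32. The difference of *acon-3* was -0.01 within JW libraries and -1.13 within D and FGSC libraries, so the pooled value rests on the second series (adjusted p of the difference between series = 0.633, limma interaction term). All 9 light-response genes were tested and 0 passed. Each of them was lower in libraries with *rcd-1* reads, by a median of -0.11, where 52.9% of all genes tested were lower. Within JW libraries 4 of the 9 were lower with reads, and within D and FGSC libraries 7 of the 9, with *wc-2* and *ccg-1* higher. In the second series the difference was -1.03 for *phr* (NCU08626), -0.71 for *al-3* (NCU01427) and -0.56 for *vvd*. Within JW libraries these 3 genes had 0.16, 0.12 and -0.08. The adjusted p of the difference between series was 0.633 for *phr* and *al-3* and 0.756 for *vvd* (limma interaction term). Several of the 9 genes answer to the same light signal, so the 9 are not separate observations. Of 5 copper genes 0 passed, with a median difference of 0.41. The copper transporter genes *tcu-1* (NCU00830) and *tcu-3* (NCU07428) were at 0.65 and 0.41. The superoxide dismutase genes *sod-2* (NCU01213) and *sod-1* (NCU02133) were at 0.54 and -0.20. The medians of *sod-2* were close, 84.7 RPKM with reads and 83 RPKM without, while its highest values were 3483 and 1427 RPKM. In the list of pheromone and mating genes only *pre-1* (NCU00138), a pheromone receptor gene, was expressed well enough to be tested, and its difference of -0.12 did not pass. At an unadjusted p of 0.05, 0 genes of these 4 lists passed over both series together (limma), against 4.83% of all genes. Within D and FGSC libraries alone *acon-3*, *phr*, *al-3*, *vvd* and *pre-1* had an unadjusted p under 0.05, as did 508 of the 7984 genes tested (limma).

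The genes whose levels were most like *rcd-1* over all libraries were only loosely so. The largest Spearman correlations were 0.37 for NCU11219, 0.36 for NCU02965, 0.33 for NCU09423, 0.32 for NCU09764 and 0.31 for NCU02207. The most negative after NCU03966 were -0.36 for NCU12160, and -0.33 for each of NCU07506, NCU02492 and NCU09635. NCU11219, on chromosome VI, had medians of 4.84 RPKM with reads and 3.61 RPKM without, a difference of 0.44 that did not pass the test (adjusted p = 0.744, limma). NCU02207 had medians of 212 RPKM with reads and 195 RPKM without, a difference of 0.12 (adjusted p = 0.744, limma).

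Within the 62 libraries with reads other genes came closest to the level of *rcd-1*, and these were picked after the values were seen. Of 7984 genes, 27 had a Spearman correlation above 0.5 with it and 1 had one below -0.5. NCU09761, on chromosome II, had a correlation of 0.60, which was 0.57 in the 40 JW and 0.61 in the 22 D and FGSC libraries, over levels of 0.683 to 141 RPKM. NCU11950 had 0.58, which was 0.64 in JW and 0.51 in D and FGSC libraries. NCU10539 had the largest value, 0.65, but it had a median of only 0.136 RPKM in these libraries and a correlation of 0.29 in the D and FGSC libraries. The most negative was *mig-2* (NCU07452), at -0.54, which was -0.61 in JW and -0.26 in D and FGSC libraries. NCU09761 and NCU11950 had correlations of 0.16 and -0.02 over all libraries.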

How the data were processed

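The authors deposited 1 table of RPKM values, reads scaled by gene length and library total, for 9733 genes and 112 strains. The submitters' processing notes name Bowtie 0.12.2. The sources used here do not give the counting tool or its annotation. Low RPKM values rise in steps of 1 read, which gave back whole reads (tolerance 0.001) in 100% of the 9696 genes detected in any library, and recovered lengths were multiples of 3 in 99.7% of them (coding length).

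Genes averaging 1 RPKM or more, except *rcd-1*, were compared with limma 3.58.1 (R 4.3.3, trend) on log2(RPKM + 1), which understates the change of low genes, with Benjamini-Hochberg adjustment at 0.05 over 7984 genes. On simulated data for this comparison, false calls were 5, 8 and 8 for changes of 0.25, 0.5 and 1 in 200 genes. limma's voom on the recovered reads, an alternative, called 1 gene. Alternatives changed the pseudocount, filter, scaling, group limits, covariates, libraries and model. Each strain gave 1 library, so p-values rest on the spread between strains, which includes that of cultures and libraries.

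Named genes were *rcd-1*, the 5 nearest genes on each side, called genes (up to 10 per direction), the 10 on/off genes with the highest share, the 5 largest and smallest correlations, and up to 4 genes per list with the smallest p; others named were chosen after their values were seen. The groups, 6 gene lists and tests were chosen with earlier results of these data known. Names came from the RefSeq annotation of assembly NC12, in which 8914 IDs matched. Other steps used scipy 1.17.1, pandas 2.3.3, numpy 2.4.6 and, for figures, matplotlib 3.10.9 in Python 3.11.15.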

Additional observations from a re-analysis of the deposited data

How the results depend on the processing

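NCU03966 was lower in libraries with *rcd-1* reads under each of 19 alternatives, by -0.47 to -0.27, and passed in 17, with adjusted p from 7.06e-05 to 0.874 (limma). The exceptions were the JW libraries alone (-0.35, 0 genes called, 319 at an unadjusted p of 0.05) and the D and FGSC libraries alone (-0.47, 0 called, 508 unadjusted), which hold fewer libraries. With each of the 112 columns as its own library 2 genes were called, NCU03332 and NCU03966; all other alternatives called 1. No neighbour of *rcd-1*, incompatibility gene or culture-state gene was called under any of them. Among 46 other named genes none came to pass, but some differences turned direction within 1 series alone. In JW libraries alone these were *phr* (NCU08626) to 0.16, *al-3* (NCU01427) to 0.12 and *mus-18* (NCU08850) to 0.19. In D and FGSC libraries alone they were NCU10387 to 0.43, NCU03392 to 0.41 and NCU11711 to 0.0411. The conidiation gene *con-6* (NCU08769) turned there from 0.20 to -0.14. NCU05716 and NCU05717, both near 0 in the main fit, turned there to -0.02 and 0.0006. The cause was not tested. The highest share of an on/off gene was 75%, 69.5% and 78.3% with limits of 5 and 0.5 RPKM, a single limit of 1 RPKM and JW libraries alone, and 90% (NCU04223, 10 libraries) when 5 on and 5 off libraries sufficed, where few libraries stand behind each share. A library total of 4174767 reads limits genes near 1 RPKM most.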
